A study of Homo sapiens with 18 samples.

Results

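Collagens, laminins and integrins are the proteins with which epithelial cells build a basement membrane and hold on to it, and their genes were followed through a short exposure of lung epithelial cells to wood smoke. A gene was counted as a member when its symbol names a collagen chain (COL, a number, A, a number), a laminin chain (LAMA, LAMB or LAMC with a number) or an integrin subunit (ITGA or ITGB with a number, or ITGA with D, E, L, M, V or X). This gave 81 of the 62649 gene IDs counted, namely 44 collagen chains, 12 laminin chains, 17 integrin alpha subunits and 8 integrin beta subunits. ITGA2B, the platelet integrin subunit, has a symbol outside these patterns and was not a member.

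The study measured mRNA in 2 human lung epithelial cell lines, both labelled wild type. BEAS-2B is a virus-immortalised bronchial epithelial line, and A549 is an alveolar epithelial line from a lung adenocarcinoma. Cells sat on porous inserts at an air-liquid interface for 4 h, with HEPES-buffered RPMI below them. They were under complete wood smoke, under filtered wood smoke, or under clean air as controls, as the sample titles name them. The labels do not say what the filter removed, and the series title speaks of carbonyl compounds in the gas phase. There were 3 libraries in each of 6 groups, BEAS-2B with complete smoke, filtered smoke and clean air and A549 with complete smoke, filtered smoke and clean air. Seeding was 500000 BEAS-2B cells or 400000 A549 cells per insert 24 h before exposure, and the lines had been kept in different media, so line, medium and seeding cannot be told apart. Each group is a single cultured line, and the labels name no other cell type beside it. Nothing in the labels says whether the 3 libraries of a group came from separate cultures, so the p-values speak to differences among libraries that may be no more than technical repeats.

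Collagen chains wind in groups of 3 into triple helices, which either bundle into fibrils or, as with collagen IV, join into the sheet of the basement membrane. Laminins are trimers of an alpha, a beta and a gamma chain that form the second sheet of that membrane and are the part epithelial cells mostly bind. Integrins are paired alpha and beta subunits in the plasma membrane. The alpha subunit largely sets whether a pair binds collagen, laminin or proteins with an RGD motif such as fibronectin, and the beta subunit couples it to the cytoskeleton. In airway and alveolar epithelium these proteins anchor cells to the lung's basement membrane, and some integrins also release TGF-beta from its latent form.

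Counts assigned to genes came to between 14438397 and 21432089 per library in A549 and between 28532235 and 55032499 in BEAS-2B, so depth cannot be told apart from line either. One library stood apart, BEAS-2B complete smoke 3, in which 31.9% of reads mapped to several places, against 7.79% to 19.3% in the others. The scaling factors that make libraries comparable (TMM, trimmed mean of M-values) were 0.718 to 1.0 in BEAS-2B smoke libraries and 1.14, 1.48 and 1.52 in BEAS-2B clean air, a gap that moves with the exposure. In A549 they were 0.916 to 1.01 in smoke libraries and 1.04, 1.09 and 1.07 in clean air, a smaller gap that also moves with the exposure. All 5 epithelial markers checked were present in every group. Of the 5 alveolar markers, SFTPB, SFTPA1 and NKX2-1 were at 0 in all 3 A549 clean air libraries and SFTPC was at most 0.121 CPM, while ABCA3, a lipid transporter of alveolar type II cells, had 50.8, 37.4 and 40.1 CPM there. Values below are CPM, a gene's counts set against its library's total, after TMM scaling, in the order of libraries 1, 2 and 3, and comparisons use edgeR's quasi-likelihood test with Benjamini-Hochberg adjustment over all genes tested. Rose, fell, higher and lower are used where the adjusted p was under 0.05. Where a gene was named for its called change, groups that do not overlap describe the values and add no support to the call. The share of all genes whose groups do not overlap is not given.

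In clean air the lines expressed different sets of matrix and adhesion genes. At least 1 CPM in all 3 libraries was reached by 47 members in BEAS-2B, of which 22 were collagens, and by 50 in A549, of which 21 were collagens. Of 68 members tested between the lines, 20 were higher and 37 were lower in BEAS-2B than in A549, where 27.3% and 28% of all 17703 genes were higher and lower. Scaled to exonic length, ITGB1, the beta subunit shared by collagen-binding, laminin-binding and fibronectin-binding pairs, had the greatest level of any member in both lines. It reached 116 ± 47.7 CPM per kb in BEAS-2B and 270 ± 14.5 CPM per kb in A549 (SD, n = 3 each). Without BEAS-2B clean air 1, where ITGB1 was lowest, that difference had an adjusted p of 0.0596, against 0.0132 with all libraries. Scaling for these line comparisons was done over all 18 libraries, so clean air values differ slightly from those given later within each line.

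Of 9 fibril-forming collagens tested, 5 were higher and 3 lower in BEAS-2B than in A549. COL5A2, a collagen V chain named after its values were seen, was among the lower, at 8.67 CPM per kb in BEAS-2B and 45.3 in A549. COL1A1, the main chain of collagen I, had 76 ± 23.5 CPM per kb in BEAS-2B and 3.03 ± 1.03 in A549, a log2 difference of 4.65 ± 0.41 (SE, adjusted p = 5.75e-08). Its partner chain COL1A2 had 15.6, 20.4 and 19.4 CPM in BEAS-2B, against 0, 0 and 0.051 CPM in A549. COL8A1, a short-chain collagen, had 77.2, 94.4 and 87.7 CPM in BEAS-2B, and again 0, 0 and 0.051 CPM in A549. For these genes the A549 level rests on a single read in 1 library, so no fold is given. COL5A3, a minor fibril chain, COL14A1, a collagen that sits on fibril surfaces, and LAMA1, the embryonic-type laminin alpha chain, were also higher in BEAS-2B. COL5A3 had 15.5, 25.3 and 27.0 CPM in BEAS-2B and 1.60, 0.818 and 0.561 CPM in A549. COL14A1 had 2.11, 2.95 and 3.49 CPM in BEAS-2B and 0.103, 0.117 and 0.255 CPM in A549, and LAMA1 had 3.65, 7.34 and 7.10 CPM in BEAS-2B and 0, 0.117 and 0.102 CPM in A549.

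A549 carried more of the basement membrane collagens. Among the network and basement membrane collagens, 8 of 9 tested were lower in BEAS-2B and 1, COL8A1, was higher. COL4A2 had 5.9 CPM per kb in BEAS-2B and 18.3 in A549, COL4A6 had 4.65 and 22.9, and COL18A1, whose cleaved end is endostatin, had 2.05 and 21.5 in the same order. The collagen-binding subunit ITGA2 stood at 1.1 ± 0.53 CPM per kb in BEAS-2B and 21.4 ± 3.83 in A549, a log2 difference of -4.27 ± 0.63 (adjusted p = 2.09e-05). ITGB5, which pairs with alpha V, had 9.95 CPM per kb in BEAS-2B and 55.4 in A549. The surface collagens COL20A1 and COL21A1, the leukocyte integrin subunits ITGAM and ITGAX and the laminin gamma chain LAMC3 were at most 0.0382 CPM per kb in BEAS-2B, while in A549 they ranged between 0.26 and 1.52 CPM per kb. Library by library, COL21A1 had 0.126, 0.188 and 0.169 CPM in BEAS-2B and 8.43, 9.39 and 14.4 CPM in A549, and ITGAX had 0, 0 and 0.0282 CPM in BEAS-2B and 2.43, 2.49 and 3.93 CPM in A549. ITGAM had 0.189, 0.322 and 0.141 CPM in BEAS-2B and 4.91, 6.5 and 3.62 CPM in A549. The groups of none of these 5 genes overlapped, which adds no support, since the genes were chosen for the size of this difference.

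Of the laminin chains of basal epithelium, LAMB3 was higher in BEAS-2B, with 14.5 CPM per kb in BEAS-2B and 6.54 in A549. LAMA3 did not pass the test, with 5.97 CPM per kb in BEAS-2B and 5.43 in A549 (adjusted p = 0.799). LAMA5 and LAMB1, which belong to the broadly expressed laminins, went the other way. LAMB1 had 19.2 ± 2.03 CPM per kb in BEAS-2B and 60.9 ± 5.64 in A549, and LAMA5 had 4.7 and 21.9. ITGA3, a main laminin receptor subunit of epithelium, followed ITGB1 and COL1A1 in BEAS-2B, at 34.8 ± 2.7 CPM per kb against 43.5 ± 4.4 in A549, a difference that did not pass the test (adjusted p = 0.162).

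**Figure D1:**
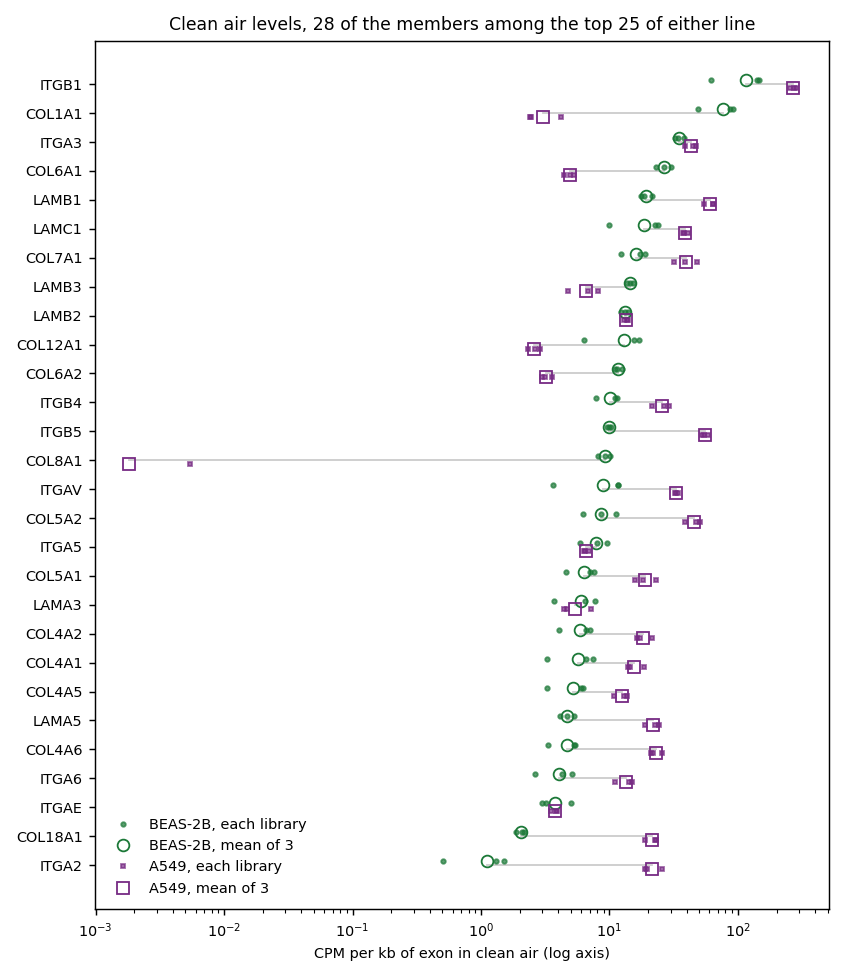
Clean air level in CPM per kb of exon on a log axis for 28 of the members among the top 25 of either line, with small marks for each library and large open marks for the mean of 3, BEAS-2B as circles and A549 as squares. ITGB1 leads in both lines, COL1A1 is higher in BEAS-2B and ITGA2 higher in A549, and libraries at 0 are not drawn, which leaves 1 mark for COL8A1 in A549.

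In the fit without offsets more members fell than rose with smoke in both lines. With offsets for GC content, exonic length and span, given below, more rose than fell. Under complete smoke in A549, 2 of 62 members tested rose and 9 fell, which is 3.23% and 14.5%, where 15.6% of all genes rose and 16.9% fell. Under filtered smoke in A549, 6 rose and 15 fell, or 9.68% and 24.2%, against 23.1% and 23.5% of all genes. Under complete smoke in BEAS-2B, 4 of 58 rose and 14 fell, or 6.9% and 24.1%, against 21.5% and 19.5% of all genes. Under filtered smoke in BEAS-2B, 9 rose and 16 fell, or 15.5% and 27.6%, against 23.6% and 24.9% of all genes. The share of members that fell was thus near that of all genes in each case, and the share that rose was below it. The members' median log2 change was -0.10 and -0.19 in A549 with complete and filtered smoke and -0.40 and -0.35 in BEAS-2B, beside 0.02, 0.01, -0.06 and -0.07 for all genes in the same order. Fewer cells making a transcript and less of it per cell cannot be told apart in such bulk RNA. Counts were too low for a test in both lines for 12 members, among them COL2A1, COL10A1 and ITGA8. Leaving out single libraries moved the number of falls between 2 and 13 and between 7 and 20 in A549 with complete and filtered smoke, and between 5 and 22 and between 7 and 20 in BEAS-2B. With BEAS-2B clean air 1 and complete smoke 3 both left out, an alternative added after seeing the data, 9 rose and 25 fell with complete smoke and 10 rose and 23 fell with filtered smoke. Shares of all genes are not given for these fits with libraries left out, so whether members depart from all genes there cannot be read from the counts.

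By family, collagens made up 29 of the 62 members tested in A549 and 29 of the 58 in BEAS-2B. In A549, 1 collagen rose and 7 fell with complete smoke, or 3.45% and 24.1%, and 3 rose and 10 fell with filtered smoke, or 10.3% and 34.5%, to be read beside the shares of all genes given above. In BEAS-2B none rose and 10 fell with complete smoke, or 34.5%, and 2 rose and 8 fell with filtered smoke, or 6.9% and 27.6%. Laminins gave 1 rise and 1 fall of 10 with complete smoke and 2 rises and 1 fall with filtered smoke in BEAS-2B, and 1 rise of 11 with complete smoke and 1 rise and 1 fall with filtered smoke in A549. Integrin alpha subunits gave 2 rises and 2 falls of 11 with complete smoke and 3 rises and 5 falls with filtered smoke in BEAS-2B, and 1 fall of 14 with complete smoke and 1 rise and 3 falls with filtered smoke in A549. Integrin beta subunits gave 1 rise and 1 fall of 8 with complete smoke and 2 and 2 with filtered smoke in BEAS-2B, and 1 fall with complete smoke and 1 rise and 1 fall with filtered smoke in A549. Of all genes in BEAS-2B, 21.5% rose and 19.5% fell with complete smoke, and 23.6% and 24.9% with filtered smoke. In A549 these shares were 15.6% and 16.9%, and 23.1% and 23.5%. With so few genes in a family, the laminin and integrin counts cannot be read as a departure from these shares.

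**Figure D2:**
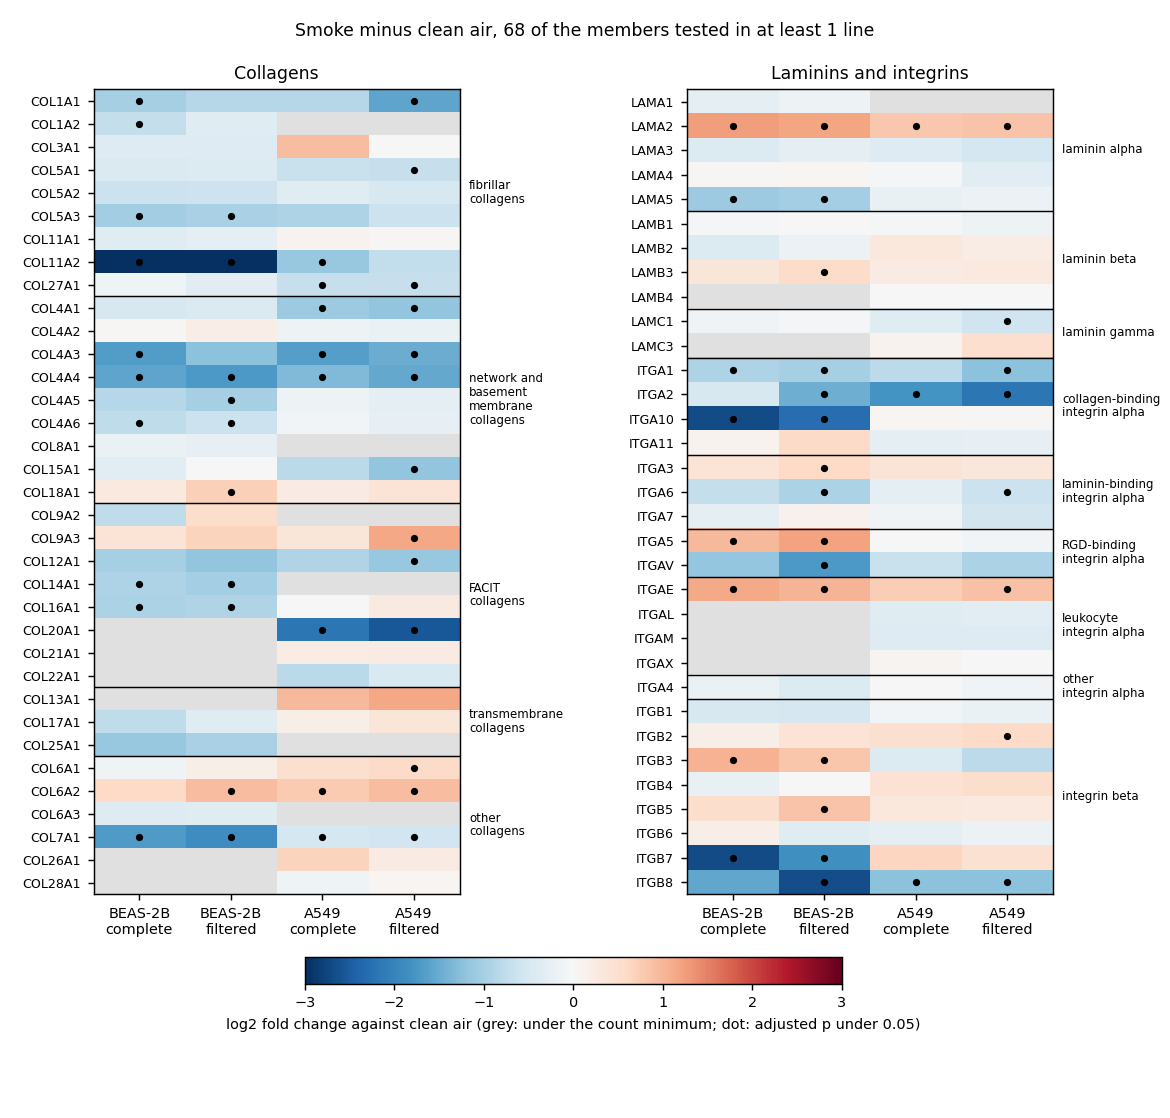
Log2 fold change of 68 of the members tested in at least 1 line, smoke minus clean air, as colour, with columns BEAS-2B complete, BEAS-2B filtered, A549 complete and A549 filtered. A dot marks an adjusted p under 0.05, grey marks a member under the count minimum, and colours end at 3 on either side, so COL11A2 in BEAS-2B (-3.94 with complete smoke and -3.04 with filtered smoke) is drawn at the limit. The collagen rows hold most of the blue cells with dots.

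Gene length moved with these counts. Members are long genes, with a median span of 88.5 kb against 33.2 kb for the 13826 protein-coding genes tested, and in these libraries long genes tended to be lower with smoke. In A549 with complete smoke the median log2 change of all genes was 0.35 under 25 kb and -0.53 between 100 and 200 kb, and in BEAS-2B it was 0.33 and -0.59. The members between 100 and 200 kb had medians of -0.33 in A549 and -0.32 in BEAS-2B with complete smoke. When offsets for GC content, exonic length and span were put into the fit, members gave 12 rises and 5 falls and 12 rises and 7 falls in A549 with complete and filtered smoke, and 14 and 6 and 15 and 8 in BEAS-2B. More members thus rose than fell in both lines with both smokes, the reverse of the fit without offsets. All genes then rose and fell in 13.7% and 14.5%, 19.3% and 19.7%, 25.1% and 20.1%, and 25.3% and 22.2% of cases. The members' medians turned to 0.18, 0.10, 0.15 and 0.21. A fall that is lost with these offsets is named as such below, and whether length is the source of any one fall was not tested.

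The scaling also bore on the split in BEAS-2B. With library size alone, which shifts the median of all genes to -0.75 with complete smoke and -0.74 with filtered smoke, no member rose and 36 and 30 fell, where 9.36% and 10.2% of all genes rose and 41.8% and 45.3% fell. Relative to those shifts the members' medians of -1.12 and -1.04 were again lower. With the replicate number as a block, members in A549 gave 9 rises and 18 falls with complete smoke and 11 and 20 with filtered smoke, where all genes gave 27.3% and 27.3%, and 30.4% and 31.3%.

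**Figure D3:**
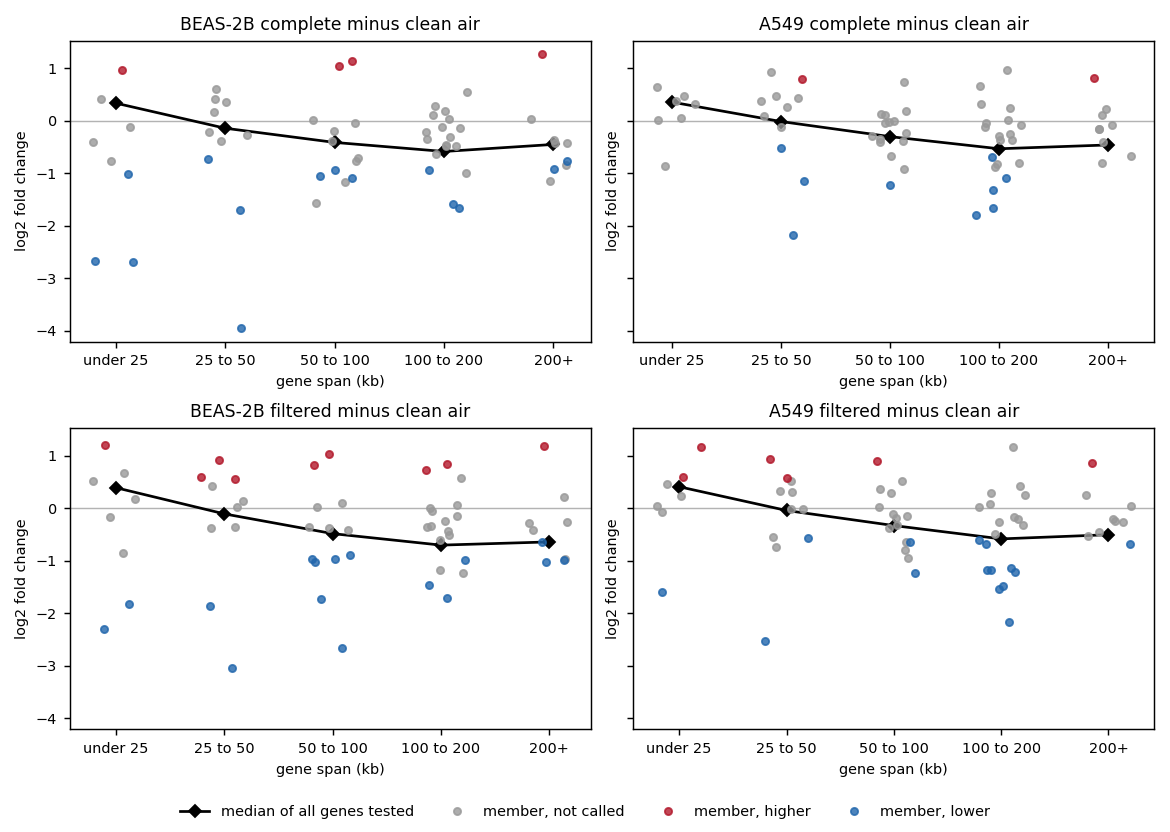
Log2 fold change of each tested member by class of gene span in kb, red where it rose, blue where it fell and grey otherwise, with black diamonds for the median of all genes tested in the class, for the 4 comparisons of smoke with clean air. The diamonds lie above 0 under 25 kb and below 0 over 50 kb, and members lie on both sides of them.

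Collagen IV, the core of the basement membrane sheet, has 6 chains whose genes lie head to head in 3 pairs, each pair reading outwards from a short shared stretch. The start sites of RefSeq lie 126 bases apart for COL4A1 and COL4A2 on chromosome 13, 418 for COL4A4 and COL4A3 on chromosome 2, and 379 for COL4A6 and COL4A5 on chromosome X. Because partners in a pair share this stretch, it is printed here for the first pair, with the 250 bases before each start for the second (RefSeq, GRCh38.p14; chr13:110307158-110307283 read on the plus strand, chr2:227164374-227164623 on the plus strand for COL4A3 and chr2:227164206-227164455 on the minus strand for COL4A4). Capitals mark GGGCGG, the GC box, or CCAAT, on either strand.
COL4A1 to COL4A2: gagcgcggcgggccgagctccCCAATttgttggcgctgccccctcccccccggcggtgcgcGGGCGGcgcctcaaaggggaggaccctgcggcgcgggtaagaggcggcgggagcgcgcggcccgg
COL4A3: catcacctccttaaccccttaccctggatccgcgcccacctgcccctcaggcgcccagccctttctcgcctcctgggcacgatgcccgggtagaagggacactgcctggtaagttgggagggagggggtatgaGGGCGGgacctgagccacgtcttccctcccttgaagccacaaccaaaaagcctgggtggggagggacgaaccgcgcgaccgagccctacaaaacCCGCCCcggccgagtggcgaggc
COL4A4: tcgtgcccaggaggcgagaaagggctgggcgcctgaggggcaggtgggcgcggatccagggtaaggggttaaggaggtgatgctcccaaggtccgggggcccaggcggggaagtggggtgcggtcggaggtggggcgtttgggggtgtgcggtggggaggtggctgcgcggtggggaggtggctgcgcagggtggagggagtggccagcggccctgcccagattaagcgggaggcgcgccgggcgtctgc

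The shared stretch of COL4A1 and COL4A2 is 80.2% G and C, and it holds 1 GGGCGG and 1 CCAAT, which 34.6% and 21.9% of the 27305 promoter windows of that length in the table also hold. GCGNGGGCG, searched on both strands too, matched once there, over the same bases as the GC box, and is held by 5.75% of windows. The COL4A3 window has 2 GGGCGG matches, as 42.3% of windows of its length have at least 1, and the COL4A4 window has none of the motifs searched. Neither TATAAA nor TGANTCA occurred in any of the 3 windows. A match is a string of letters and no evidence of binding.

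Within the first pair the chains parted in A549. COL4A1 had 133, 85.8 and 164 CPM with complete smoke and 124, 86.4 and 149 CPM with filtered smoke, against 322, 240 and 255 CPM in clean air. Neither smoke group overlapped clean air, and the log2 changes were -1.09 ± 0.26 (adjusted p = 0.0149) and -1.19 ± 0.26 (adjusted p = 0.00687). COL4A2 had 424, 295 and 404 CPM with complete smoke, 390, 335 and 367 with filtered smoke and 484, 369 and 401 in clean air, so its groups overlapped and it did not pass the test (-0.16 ± 0.17 and -0.20 ± 0.17). The complete smoke call for COL4A1 was lost without clean air 1 or complete smoke 2 (adjusted p up to 0.0576). With the offsets COL4A1 passed with neither smoke (adjusted p up to 0.165) and COL4A2 was higher with both, at 0.58 and 0.62. In BEAS-2B neither chain passed the test, with log2 changes of -0.49 and -0.43 for COL4A1 and 0.03 and 0.21 for COL4A2. Whether the chains changed to different degrees in A549 was not tested.

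COL4A3 and COL4A4, chains of the specialised network of the alveolar and glomerular basement membrane, fell together in A549. COL4A3 had 3.40, 2.31 and 4.43 CPM with complete smoke and 3.36, 2.73 and 5.20 CPM with filtered smoke, against 9.77, 10.9 and 11.1 CPM in clean air. Its log2 changes were -1.65 ± 0.28 (adjusted p = 0.00437) and -1.49 ± 0.28 (adjusted p = 0.00388), and both calls held under all 16 alternatives tried. COL4A4 had 5.74, 5.70 and 9.48 CPM with complete smoke and 5.04, 3.62 and 9.14 CPM with filtered smoke, against 19.2, 15.0 and 18 CPM in clean air. The groups did not overlap, and the changes were -1.31 ± 0.32 (adjusted p = 0.016) and -1.55 ± 0.33 (adjusted p = 0.00567). The filtered smoke call for COL4A4 held under all 16 alternatives, while the complete smoke call was lost without complete smoke 1, complete smoke 2, clean air 1 or clean air 3 (adjusted p up to 0.0716).

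COL4A4 fell in BEAS-2B too, at a low level. It had 0.456, 1.07 and 1.78 CPM with complete smoke and 0.715, 1.17 and 1.08 CPM with filtered smoke, against 2.73, 3.51 and 3.6 CPM in clean air, with changes of -1.59 ± 0.42 (adjusted p = 0.0181) and -1.71 ± 0.42 (adjusted p = 0.0123). Without complete smoke 2, clean air 2 or clean air 3 the complete smoke call was lost (adjusted p up to 0.0595). COL4A3 had 0.405, 0.237 and 0.197 CPM with complete smoke in BEAS-2B, against 0.563, 1.02 and 1.13 CPM in clean air, a change of -1.67 ± 0.54 (adjusted p = 0.0347). That call was lost with the offsets, with counts that ignore strand, and without any of complete smoke 1, 2 and 3 or clean air 2 and 3 (adjusted p up to 0.111). With filtered smoke COL4A3 changed by -1.23 ± 0.52 (adjusted p = 0.0726), or by -1.30 with an adjusted p of 0.0294 when replicates are paired.

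The X-linked pair, described here after its values were seen, was lower with filtered smoke in BEAS-2B, and COL4A6 also with complete smoke. COL4A6 had 18.1, 24.6 and 20.7 CPM with complete smoke and 19.9, 24.8 and 24.4 CPM with filtered smoke, against 27.5, 40.4 and 40.1 CPM in clean air, all smoke libraries below all clean air libraries. The changes were -0.77 ± 0.22 (adjusted p = 0.0213) and -0.64 ± 0.21 (adjusted p = 0.0336). COL4A5 changed by -0.85 ± 0.32 (adjusted p = 0.0553) and -0.99 ± 0.32 (adjusted p = 0.0294). All 3 of these calls were lost with the offsets and without clean air 2 or 3, the complete smoke call also without complete smoke 1, both filtered smoke calls without filtered smoke 1 or 2, and that of COL4A6 without filtered smoke 3 or with no low-count filter (adjusted p up to 0.118 over the left-out libraries). In A549 both chains had log2 changes between -0.27 and -0.08 and passed with neither smoke.

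**Figure D4:**
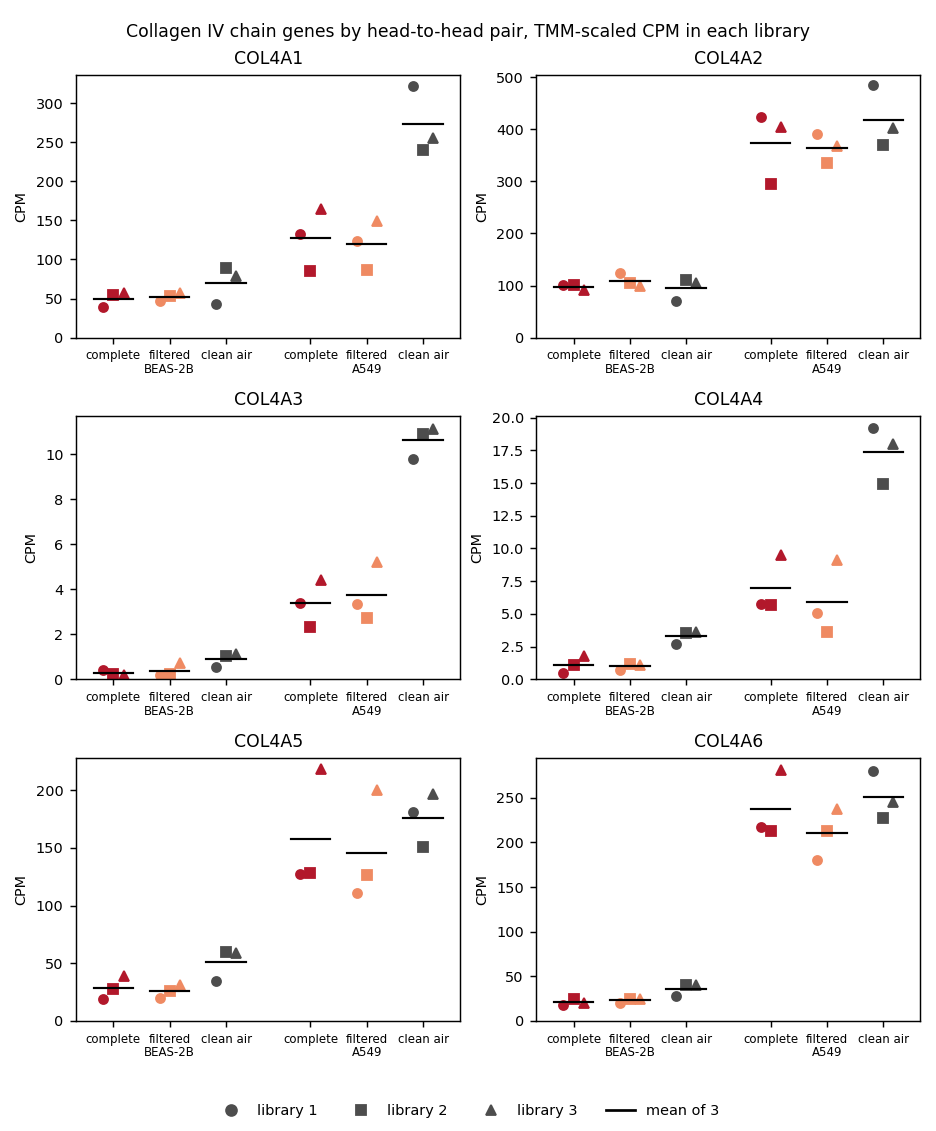
TMM-scaled CPM of the 6 collagen IV chains in every library, 1 pair to a row, with complete smoke, filtered smoke and clean air of BEAS-2B and then of A549 from left to right and a bar at the mean of 3. COL4A1, COL4A3 and COL4A4 in A549 show smoke libraries clear of clean air, and COL4A2 does not.

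Collagen VII forms the anchoring fibrils that tie the basement membrane of surface epithelia to the tissue below, and its only gene, COL7A1 (chromosome 3, 48564073 to 48595267, minus strand), fell in both lines. In BEAS-2B it had 32.3, 32.4 and 75.2 CPM with complete smoke and 40.8, 38.2 and 45.2 CPM with filtered smoke, against 170, 112 and 172 CPM in clean air. The groups did not overlap, and the changes of -1.70 ± 0.34 (adjusted p = 0.00723) and -1.87 ± 0.35 (adjusted p = 0.00512) held under all 17 alternatives. In A549 it had 363, 299 and 416 CPM with complete smoke and 319, 354 and 369 CPM with filtered smoke, against 622, 502 and 427 CPM in clean air. These changes were smaller, -0.52 ± 0.18 (adjusted p = 0.0477) and -0.57 ± 0.18 (adjusted p = 0.0257). Complete smoke was not called in A549 with DESeq2's size factors, with counts that ignore strand, with the offsets, or without any library except complete smoke 3 and filtered smoke 3 (adjusted p up to 0.175). The filtered smoke call was lost without clean air 1 or 2 or filtered smoke 1 or 2 (adjusted p up to 0.106).

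COL18A1, a basement membrane collagen, went the other way. In BEAS-2B it had 21.6, 18.1 and 14 CPM with complete smoke and 29.4, 22.5 and 20.9 CPM with filtered smoke, against 16.0, 15.0 and 13.1 CPM in clean air. The filtered smoke libraries lay above clean air, a rise of 0.72 ± 0.22 (adjusted p = 0.026) that was lost with library size alone, with no low-count filter and without clean air 2 or 3 or filtered smoke 1 or 2 (adjusted p up to 0.0996 over the left-out libraries). COL17A1, the transmembrane collagen of hemidesmosomes, passed in neither line. It had 3.98, 6.81 and 4.77 CPM with complete smoke and 4.83, 9.71 and 5.98 CPM with filtered smoke, against 6.31, 10.5 and 9.48 CPM in BEAS-2B clean air.

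Among fibril collagens the steepest fall of any member was that of COL11A2, a minor chain that seeds fibrils in cartilage (chromosome 6, 33162681 to 33192499, minus strand). In BEAS-2B it had 0.304, 0.266 and 0.230 CPM with complete smoke and 0.409, 0.647 and 0.448 CPM with filtered smoke, against 4.68, 3.57 and 4.29 CPM in clean air. The changes were -3.94 ± 0.29 (adjusted p = 0.00124) and -3.04 ± 0.27 (adjusted p = 0.00161), and both held under all 17 alternatives. The A549 values were 0.851, 0.786 and 1.42 CPM with complete smoke and 1.10, 1.51 and 1.43 CPM with filtered smoke, against 2.61, 2.32 and 1.85 CPM in clean air. The change of -1.14 ± 0.30 with complete smoke passed (adjusted p = 0.0191), but not without complete smoke 1 or 2 or clean air 1 or 2 (adjusted p up to 0.0851), and that of -0.74 ± 0.29 with filtered smoke did not pass (adjusted p = 0.0587, or 0.04 with replicates paired).

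The collagen I chain COL1A1 fell with filtered smoke in A549 and with complete smoke in BEAS-2B. In A549 COL1A1 (chromosome 17, 50183289 to 50201632, minus strand) had 24.3, 10.5 and 23.3 CPM with complete smoke and 16.0, 8.81 and 10.2 CPM with filtered smoke, against 48.6, 27.6 and 29.1 CPM in clean air. Filtered smoke gave -1.59 ± 0.36 (adjusted p = 0.0073), which held under all 16 alternatives. Complete smoke gave -0.86 ± 0.35 (adjusted p = 0.0803), or -0.88 with an adjusted p of 0.00172 when replicates are paired. In BEAS-2B, where COL1A1 is abundant, it had 180, 366 and 383 CPM with complete smoke and 282, 400 and 353 CPM with filtered smoke, against 431, 735 and 699 CPM in clean air. The complete smoke change of -1.01 ± 0.33 passed (adjusted p = 0.0365) and the filtered smoke change of -0.85 ± 0.33 did not (adjusted p = 0.0565, or 0.00113 with replicates paired). The complete smoke call was lost with the offsets and without complete smoke 1 or 2, filtered smoke 2 or 3 or clean air 2 or 3 (adjusted p up to 0.118).

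COL1A2 and COL5A3 also passed in BEAS-2B, at lower levels. COL1A2 had 9.45, 11.6 and 7.04 CPM with complete smoke and 11.9, 13.3 and 10.7 CPM with filtered smoke, against 13.9, 16.6 and 15.9 CPM in clean air, and only complete smoke passed (-0.72 ± 0.22, adjusted p = 0.0285). COL5A3 had 5.57, 9.88 and 11.9 CPM with complete smoke and 7.39, 10.8 and 10.5 CPM with filtered smoke, against 13.9, 20.6 and 22.1 CPM in clean air, a fall of 1.05 and 0.98 on the log2 scale (adjusted p = 0.0268 and 0.0297). The calls for both genes were lost with the offsets and without clean air 2 or 3 (adjusted p up to 0.101 over the left-out libraries), and also with no low-count filter or without complete smoke 1 or 3 for COL1A2, complete smoke 1 or 2 for COL5A3 with complete smoke and any filtered smoke library for COL5A3 with filtered smoke. The other 5 fibril collagens tested there, COL3A1, COL5A1, COL5A2, COL11A1 and COL27A1, passed with neither smoke, at -0.63 to -0.14 on the log2 scale. Of the fibroblast markers, PDGFRB had 4.31, 6.04 and 3.78 CPM with complete smoke and 5.96, 8.17 and 5.91 CPM with filtered smoke, against 19.6, 26.8 and 29.8 CPM in BEAS-2B clean air. FAP did not fall, with 2.13, 2.04 and 2.3 CPM with complete smoke and 1.67, 1.48 and 1.84 CPM with filtered smoke, against 1.49, 1.18 and 0.992 CPM in clean air. The values of DCN and PDPN overlapped between smoke and clean air, LUM was at most 0.165 CPM and PDGFRA at most 0.17 CPM in any BEAS-2B library. The sum of all 6 markers was 9.86 to 13.1 CPM with complete smoke and 12 to 13.9 CPM with filtered smoke, against 24.3 to 34.5 CPM in clean air, a gap that came from PDGFRB. Their part in the result was not tested.

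In A549 the collagen V chain COL5A1 had 206, 112 and 157 CPM with complete smoke and 187, 131 and 152 CPM with filtered smoke, against 302, 239 and 213 CPM in clean air. It fell by 0.69 on the log2 scale with filtered smoke (adjusted p = 0.0357), lost with the offsets and without clean air 1 or 2 or filtered smoke 2 (adjusted p up to 0.131). The complete smoke change of -0.67 ± 0.24 had an adjusted p of 0.0513, or 0.00109 with replicates paired. COL27A1, a long minor fibril collagen named after its values were seen, fell in A549 by 0.69 with each smoke (adjusted p = 0.0219 and 0.0146). Both its calls were lost with the offsets and without clean air 1, and with complete smoke also without complete smoke 1 or 2 or clean air 2, with filtered smoke without filtered smoke 1 (adjusted p up to 0.0948 over the left-out libraries).

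Of the collagens that decorate fibrils (FACIT collagens), 2 of 6 tested fell in A549 and 2 of 5 in BEAS-2B with filtered smoke. Of all genes 23.5% and 24.9% fell, and counts this small cannot be read as a departure from that. COL9A3, of the same class, rose with filtered smoke in A549. The response of none of the 8 tested between the lines passed the test of a difference, and COL20A1 was under the count minimum in BEAS-2B, as COL14A1 was in A549. COL20A1, a collagen first described in the chick, fell in A549 to 1.21, 1.33 and 3.52 CPM with complete smoke and 0.950, 1.78 and 1.91 CPM with filtered smoke, against 12.6, 7.82 and 7.07 CPM in clean air. The changes were -2.17 ± 0.42 (adjusted p = 0.00702) and -2.54 ± 0.43 (adjusted p = 0.00269), and both calls held under all 16 alternatives. COL12A1, the surface collagen of tendon and dense tissue, had 17.4, 13.6 and 31.3 CPM with complete smoke and 12.9, 11.5 and 27.9 CPM with filtered smoke, against 33.9, 38.4 and 43.4 CPM in A549 clean air. Only the filtered smoke change of -1.14 ± 0.37 passed (adjusted p = 0.0291), and not with the offsets or without clean air 1, 2 or 3 or filtered smoke 1 or 2 (adjusted p up to 0.106 over the left-out libraries). Complete smoke gave -0.89 ± 0.37 (adjusted p = 0.0834, or 0.00116 with replicates paired). In BEAS-2B COL12A1 changed by -1.0 ± 0.45 and -1.18 ± 0.45 without passing (adjusted p = 0.0994 and 0.0549, the second 0.000663 with replicates paired).

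COL14A1 and COL16A1 fell in BEAS-2B with both smokes. COL14A1 had 0.988, 1.51 and 1.28 CPM with complete smoke and 1.12, 0.940 and 1.46 CPM with filtered smoke, against 1.89, 2.40 and 2.86 CPM in clean air (adjusted p = 0.0281 and 0.0175). COL16A1, named after its values were seen, had 9.70, 7.63 and 6.51 CPM with complete smoke and 10.2, 7.29 and 7.04 CPM with filtered smoke, against 20.5, 13.0 and 12.3 CPM in clean air (adjusted p = 0.0247 with each). No smoke library of either gene reached the lowest clean air library. The COL14A1 calls were lost with the offsets and without clean air 2 or 3, complete smoke 1, or filtered smoke 1 or 2 (adjusted p up to 0.11 over the left-out libraries). The COL16A1 calls were lost without clean air 1, and with complete smoke also with the offsets or without clean air 2 or complete smoke 2, with filtered smoke without filtered smoke 2 or 3 (adjusted p up to 0.0898). Also outside the naming rule, COL15A1, a basement membrane collagen, fell with filtered smoke in A549 to 0.438, 0.725 and 0.777 CPM, against 1.64, 1.05 and 1.85 CPM in clean air (adjusted p = 0.0182), and COL9A3 rose there to 0.731, 0.725 and 0.657 CPM, against 0.364, 0.364 and 0.185 CPM (adjusted p = 0.0273). Both were lost with the offsets and without clean air 1 or 3 or filtered smoke 1 or 2, COL9A3 also without clean air 2, with no low-count filter and with DESeq2's Wald test (adjusted p up to 0.0942 over the left-out libraries).

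Collagen VI is the beaded-filament collagen around cells, and its chain COL6A2 passed in 3 of the 4 comparisons. COL6A2 (chromosome 21, 46098097 to 46132849, plus strand) had 40.5, 34.8 and 31.9 CPM with complete smoke and 43.4, 43.5 and 31.2 CPM with filtered smoke, against 18.8, 19.7 and 23.3 CPM in A549 clean air. The changes were 0.80 ± 0.18 (adjusted p = 0.0115) and 0.94 ± 0.18 (adjusted p = 0.00386), and the filtered smoke call held under all 16 alternatives. Without clean air 1 or 2 the complete smoke call was lost (adjusted p up to 0.0509). The BEAS-2B values were 70.0, 111 and 60.1 CPM with complete smoke and 94.6, 108 and 97.2 CPM with filtered smoke, against 52.8, 54.8 and 50.8 CPM in clean air. Here the filtered smoke change of 0.92 ± 0.23 passed (adjusted p = 0.0129), except with library size alone and without clean air 3 (adjusted p = 0.0518), and the complete smoke change of 0.61 ± 0.23 did not (adjusted p = 0.0589).

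COL6A1, its neighbour on chromosome 21, had 50.3, 37.4 and 41.8 CPM with complete smoke and 54.1, 46.6 and 39.2 CPM with filtered smoke, against 33.5, 27.8 and 31.9 CPM in A549 clean air. All smoke libraries lay above clean air, and filtered smoke passed at 0.59 ± 0.17 (adjusted p = 0.0197) while complete smoke gave 0.47 ± 0.17 (adjusted p = 0.0562, or 0.00943 with replicates paired). The call was lost with library size alone, with the offsets and without clean air 2 or 3 or filtered smoke 1 or 2 (adjusted p up to 0.0805 over the left-out libraries). In BEAS-2B it did not pass, at -0.13 ± 0.20 and 0.17 ± 0.20. COL6A3, the chain that completes the trimer, was under the count minimum in A549 and passed with neither smoke in BEAS-2B, at -0.39 ± 0.50 and -0.37 ± 0.50.

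Of the laminins, LAMA5, the alpha chain of the main adult epithelial laminins, fell in BEAS-2B (chromosome 20, 62307955 to 62367312, minus strand). It had 26.6, 21.4 and 31.2 CPM with complete smoke and 35.7, 23.9 and 23.8 CPM with filtered smoke, against 52.3, 54.5 and 62.2 CPM in clean air. The groups did not overlap, and the changes of -1.09 ± 0.22 (adjusted p = 0.00739) and -1.02 ± 0.22 (adjusted p = 0.00856) held under all 17 alternatives. A549 libraries had 380, 252 and 314 CPM with complete smoke, 303, 347 and 324 CPM with filtered smoke and 382, 402 and 323 CPM in clean air, with changes of -0.23 ± 0.17 and -0.19 ± 0.17 that did not pass.

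The chains LAMB3 and LAMA3 belong to the laminin of basal epithelium. LAMB3 had 75.0, 86.7 and 59.2 CPM with complete smoke and 84.8, 93.1 and 74.1 CPM with filtered smoke, against 60.6, 58.4 and 52.9 CPM in BEAS-2B clean air. Filtered smoke gave 0.55 ± 0.19 (adjusted p = 0.0376), lost with library size alone, with no low-count filter, with the offsets and without complete smoke 1, filtered smoke 1 or 2 or clean air 2 or 3 (adjusted p up to 0.127 over the left-out libraries). LAMA3 had 43.4, 65.0 and 55.5 CPM with complete smoke, 45.4, 74.3 and 59.5 CPM with filtered smoke and 48.5, 92.5 and 77.8 CPM in BEAS-2B clean air. It did not pass there, at -0.42 ± 0.28 and -0.29 ± 0.28. In A549 LAMA3 had 49.1, 44.4 and 122 CPM with complete smoke, 38.9, 45.3 and 113 CPM with filtered smoke and 80.3, 76.5 and 127 CPM in clean air. Library 3 was the highest in each group, the change was -0.40 ± 0.47 and -0.52 ± 0.47 without passing, and with replicates paired both smokes passed (-0.53 and -0.66, adjusted p = 0.014 and 0.00322).

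LAMC1, the gamma chain of most laminins, had 277, 247 and 368 CPM with complete smoke and 218, 211 and 332 CPM with filtered smoke, against 405, 364 and 384 CPM in A549 clean air. It fell by 0.60 on the log2 scale with filtered smoke (adjusted p = 0.0382), lost with the offsets (0.01) and without complete smoke 1, filtered smoke 1 or 2 or any clean air library (adjusted p up to 0.141 over the left-out libraries). The complete smoke change of -0.37 ± 0.21 passed with replicates paired (adjusted p = 0.0257) and not otherwise (adjusted p = 0.184). BEAS-2B libraries held 103, 113 and 146 CPM with complete smoke, 115, 122 and 138 CPM with filtered smoke and 74.3, 162 and 155 CPM in clean air, and did not pass. LAMB1, in the same trimers, had 118, 128 and 136 CPM with complete smoke, 112, 131 and 154 CPM with filtered smoke and 127, 142 and 124 CPM in BEAS-2B clean air. Its log2 changes lay between -0.15 and 0.01 over both lines and both smokes, none of which passed. LAMA2, the muscle laminin chain, rose in both lines at a low level.

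In BEAS-2B LAMA2 had 0.633, 0.829 and 0.723 CPM with complete smoke and 0.477, 0.773 and 0.801 CPM with filtered smoke, against 0.225, 0.327 and 0.346 CPM in clean air (adjusted p = 0.0177 and 0.0188). In A549 it had 1.84, 1.67 and 1.36 CPM with complete smoke and 1.53, 1.51 and 1.97 CPM with filtered smoke, against 1.15, 0.773 and 0.861 CPM in clean air (adjusted p = 0.0466 and 0.0287). No smoke library overlapped clean air. All 4 calls were lost with library size alone, with no low-count filter and without clean air 2 or 3. In A549 they were also lost with counts that ignore strand, where filtered smoke gave -0.0013, and complete smoke also with DESeq2's Wald test. Further libraries whose removal ended a call were complete smoke 2 and filtered smoke 2 and 3 in BEAS-2B, clean air 1, complete smoke 1 and 2 and filtered smoke 1 and 2 for complete smoke in A549, and filtered smoke 1, 2 and 3 for filtered smoke in A549 (adjusted p up to 0.153).

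Integrins that bind collagen, paired with ITGB1, fell where they changed. ITGA2, the collagen receptor of epithelium and platelets (chromosome 5, 52989326 to 53094779, plus strand), had 33.9, 36.4 and 102 CPM with complete smoke and 19.1, 26.2 and 88.0 CPM with filtered smoke, against 175, 238 and 186 CPM in A549 clean air. Library 3 was the highest of each smoke group, and no smoke library reached clean air. The changes were -1.79 ± 0.57 (adjusted p = 0.0386) and -2.17 ± 0.58 (adjusted p = 0.0142). Complete smoke was lost without complete smoke 1 or 2 or any clean air library (adjusted p up to 0.134), and filtered smoke without filtered smoke 2 (adjusted p = 0.0584). In BEAS-2B ITGA2 had 3.44, 3.11 and 9.14 CPM with complete smoke and 2.01, 2.44 and 3.42 CPM with filtered smoke, against 3.55, 9.63 and 8.51 CPM in clean air. Filtered smoke passed at -1.46 ± 0.50 (adjusted p = 0.0362), though not with the offsets or without clean air 2 or 3 or filtered smoke 1 or 2 (adjusted p up to 0.119), and complete smoke did not, at -0.47 ± 0.48.

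ITGA10, a collagen receptor subunit of cartilage (chromosome 1, 145891208 to 145910189, minus strand), fell in BEAS-2B. It had 0.507, 0.414 and 0.690 CPM with complete smoke and 0.681, 0.752 and 0.660 CPM with filtered smoke, against 3.49, 2.90 and 3.92 CPM in clean air. The changes of -2.68 ± 0.27 (adjusted p = 0.00126) and -2.29 ± 0.26 (adjusted p = 0.00191) held under all 17 alternatives. In A549 its groups overlapped throughout, with 2.55, 2.16 and 5.39 CPM with complete smoke, 2.27, 2.34 and 5.32 CPM with filtered smoke and 2.49, 2.27 and 5.04 CPM in clean air (0.05 ± 0.47 and 0.03 ± 0.47). ITGA1, named after its values were seen, fell in BEAS-2B by 0.93 and 0.99 (adjusted p = 0.0444 and 0.0318) and in A549 by 1.22 with filtered smoke (adjusted p = 0.0185). These 3 calls were lost with the offsets and without clean air 3 or filtered smoke 2, in BEAS-2B also without clean air 2, complete smoke 1 or 2 for complete smoke and filtered smoke 1 for filtered smoke, and in A549 without filtered smoke 1 (adjusted p up to 0.147). ITGA1 overlaps PELO on the same strand, so its counts are uncertain.

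Laminin-binding subunits split. ITGA3 had 444, 370 and 326 CPM with complete smoke and 530, 397 and 365 CPM with filtered smoke, against 286, 301 and 272 CPM in BEAS-2B clean air, every smoke library above clean air. Filtered smoke passed at 0.59 ± 0.21 (adjusted p = 0.0454), though not with library size alone, with no low-count filter or without complete smoke 1 or 2, filtered smoke 1 or 2 or clean air 2 or 3 (adjusted p up to 0.175 over the left-out libraries). In A549 its changes of 0.38 ± 0.15 and 0.33 ± 0.15 did not pass (adjusted p = 0.0732 and 0.0933), or did with replicates paired (adjusted p = 0.0164 and 0.0283).

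ITGA6, the other main laminin receptor subunit, fell with filtered smoke. It had 88.2, 70.0 and 94.9 CPM with complete smoke and 60.5, 54.0 and 84.0 CPM with filtered smoke, against 109, 114 and 87.3 CPM in A549 clean air (-0.64 ± 0.20 with filtered smoke, adjusted p = 0.0245). In BEAS-2B it had 11.5, 9.38 and 19.0 CPM with complete smoke and 8.99, 12.7 and 12 CPM with filtered smoke, against 15.3, 27.3 and 23.0 CPM in clean air (-0.96 ± 0.32 with filtered smoke, adjusted p = 0.0322). Both calls were lost with the offsets and without clean air 2 or filtered smoke 1 or 2, in A549 also without clean air 1 and in BEAS-2B without clean air 3 or filtered smoke 3 (adjusted p up to 0.119 over the left-out libraries). Its hemidesmosome partner ITGB4 had 332, 269 and 227 CPM with complete smoke and 331, 322 and 232 CPM with filtered smoke, against 231, 211 and 174 CPM in A549 clean air. The changes of 0.43 ± 0.20 and 0.52 ± 0.20 missed the threshold (adjusted p = 0.112 and 0.0501) and passed with replicates paired (adjusted p = 0.00665 and 0.00146).

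Among RGD-binding subunits, ITGA5, the fibronectin receptor subunit (chromosome 12, 54395261 to 54419460, minus strand), rose in BEAS-2B. It had 103, 112 and 74.6 CPM with complete smoke and 131, 119 and 92.2 CPM with filtered smoke, against 40.3, 59.0 and 49.4 CPM in clean air, with no overlap. The changes were 0.96 ± 0.23 (adjusted p = 0.0126) and 1.2 ± 0.23 (adjusted p = 0.00585). Both were lost with library size alone, and complete smoke also without complete smoke 1 (adjusted p = 0.0519). In A549 there were 64.0, 53.4 and 60.5 CPM with complete smoke, 64.9, 52.7 and 49.8 CPM with filtered smoke and 61.3, 56.4 and 59.1 CPM in clean air, and the gene passed with neither (0.01 ± 0.15 and -0.08 ± 0.15).

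ITGAV, the alpha subunit of the receptors that release TGF-beta, fell in BEAS-2B. It had 14.3, 19.7 and 47.0 CPM with complete smoke and 11.4, 17.5 and 26.1 CPM with filtered smoke, against 26.5, 77.5 and 78.1 CPM in clean air. Filtered smoke gave -1.73 ± 0.54 (adjusted p = 0.0282) and complete smoke -1.17 ± 0.54 (adjusted p = 0.102), and the call was lost with no low-count filter, with the offsets and without clean air 2 or 3 or filtered smoke 1 or 2 (adjusted p up to 0.0912 over the left-out libraries). In A549 it had 167, 141 and 298 CPM with complete smoke, 118, 113 and 269 CPM with filtered smoke and 316, 313 and 337 CPM in clean air. Every smoke library lay below clean air, and the changes of -0.67 ± 0.36 and -0.95 ± 0.36 passed only with replicates paired (adjusted p = 0.159 and 0.0508, or 0.00431 and 0.000402 paired).

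Its partner ITGB8, the subunit that activates TGF-beta on epithelium, fell in both lines. In BEAS-2B it had 7.09, 4.88 and 22.3 CPM with complete smoke and 4.63, 4.43 and 6.85 CPM with filtered smoke, against 15.5, 45.5 and 39.8 CPM in clean air. Filtered smoke gave -2.66 ± 0.60 (adjusted p = 0.00923) and held under all 17 alternatives. Complete smoke gave -1.56 ± 0.58 (adjusted p = 0.0536), with library 3 of complete smoke inside the clean air range. In A549 the gene stood at 3.47, 2.90 and 4.09 CPM with complete smoke and 2.92, 2.40 and 5.02 CPM with filtered smoke, against 7.28, 9.46 and 7.63 CPM in clean air, a fall of 1.22 and 1.24 (adjusted p = 0.0123 and 0.00726). With the offsets neither passed in A549 (adjusted p up to 0.132), and the complete smoke call was also lost without complete smoke 2 or clean air 2 (adjusted p up to 0.0601).

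The beta subunits ITGB5 and ITGB3, which also pair with alpha V, rose in BEAS-2B. ITGB5 had 96.0, 75.7 and 63.6 CPM with complete smoke and 125, 81.1 and 85.6 CPM with filtered smoke, against 59.8, 50.5 and 52.0 CPM in clean air (0.54 ± 0.23, adjusted p = 0.0835, and 0.85 ± 0.23, adjusted p = 0.0167). ITGB3 had 11.8, 7.52 and 13.0 CPM with complete smoke and 12.8, 7.25 and 7.87 CPM with filtered smoke, against 4.70, 5.75 and 5.21 CPM in clean air (1.04 ± 0.29, adjusted p = 0.0206, and 0.83 ± 0.29, adjusted p = 0.0387). All smoke libraries of both genes lay above clean air. The calls were lost with library size alone and without clean air 2 or 3, and also without filtered smoke 1 (both genes with filtered smoke), complete smoke 1 (ITGB3 with complete smoke) or clean air 1 (ITGB3 with filtered smoke), with adjusted p up to 0.153 over the left-out libraries. In A549 ITGB5 changed by 0.33 ± 0.13 and 0.29 ± 0.13 (adjusted p = 0.0723 and 0.0848, or 0.0292 and 0.0422 paired). ITGB6, the epithelial TGF-beta activator, had log2 changes between -0.35 and 0.18 and passed nowhere.

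The shared subunit ITGB1 had 239, 427 and 591 CPM with complete smoke, 203, 423 and 604 CPM with filtered smoke and 330, 693 and 719 CPM in BEAS-2B clean air, with library 1 the lowest of each group. In A549 its values were 1631, 1577 and 2200 CPM with complete smoke, 1428, 1372 and 2210 CPM with filtered smoke and 1912, 1788 and 2057 CPM in clean air. The groups overlapped in both lines and no change passed (-0.50 to -0.09), except in BEAS-2B with filtered smoke when replicates are paired (-0.56, adjusted p = 0.00701).

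Subunits named for leukocytes were also measured in these epithelial lines. ITGAE, the receptor subunit that holds T cells to E-cadherin, rose in BEAS-2B to 49.7, 47.0 and 42.2 CPM with complete smoke and 46.9, 41.8 and 40.3 CPM with filtered smoke, against 29.9, 16.3 and 17.4 CPM in clean air. The groups did not overlap, and the changes of 1.13 ± 0.24 (adjusted p = 0.00882) and 1.02 ± 0.24 (adjusted p = 0.011) were lost only with library size alone. In A549 it had 58.8, 55.1 and 34.8 CPM with complete smoke and 72.6, 55.5 and 36.3 CPM with filtered smoke, against 30.5, 30.0 and 28.2 CPM in clean air (0.74 ± 0.26, adjusted p = 0.0505, or 0.003 paired, and 0.89 ± 0.26, adjusted p = 0.0198). The A549 call was lost without filtered smoke 1 or 2 or any clean air library (adjusted p up to 0.0821). ITGAE overlaps HASPIN on the opposite strand, and its calls in BEAS-2B held with counts that ignore strand.

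ITGB7, the usual partner of ITGAE, did the reverse in BEAS-2B at a far lower level and is named after its values were seen. It had 0.127, 0.0592 and 0.230 CPM with complete smoke and 0.272, 0.292 and 0.188 CPM with filtered smoke, against 1.13, 0.523 and 1.06 CPM in clean air. The changes were -2.69 ± 0.51 (adjusted p = 0.00549) and -1.83 ± 0.46 (adjusted p = 0.0132). Both were lost with counts that ignore strand, where reads of the overlapping ZNF740 on the other strand are not kept apart, and filtered smoke also without clean air 3 (adjusted p = 0.0542). ITGB2, the common leukocyte beta subunit, had 10.7, 11.9 and 13.0 CPM with filtered smoke against 7.10, 6.77 and 9.90 CPM in A549 clean air, a rise of 0.58 ± 0.20 (adjusted p = 0.0386). That call was lost with library size alone, with the offsets and without any library except complete smoke 2, complete smoke 3 and clean air 3 (adjusted p up to 0.137 over the left-out libraries). Of 5 leukocyte markers, CD3E was at 0 in every library and PTPRC did not exceed 0.127 CPM, while CD14 had 2.92 to 9.12 CPM. The sum of all 5 lay between 3.00 and 9.19 CPM over all libraries and came mostly from CD14.

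Complete and filtered smoke were not told apart by any member. With edgeR's test 0 of 62 members in A549 and 0 of 58 in BEAS-2B passed between complete and filtered smoke, as did 0% and 0% of all genes, and DESeq2's test also called 0 members. In A549 0 of 62 members and 236 of 15244 genes had an unadjusted p under 0.05. In BEAS-2B 2 of 58 members and 222 of 16356 genes did. Those members, COL11A2 and COL9A2, had log2 changes of -0.91 and -1.28 for complete minus filtered smoke. Neither passed after adjustment, so they are not read as telling the smokes apart. Changes of members between the smokes ran from -0.80 to 0.95 in A549 and from -1.28 to 1.10 in BEAS-2B, so with 3 libraries a group these data do not show that the smokes act alike. Since both are set against the same clean air libraries, their falls and rises beside each other are not independent.

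The number of members whose response differed between the lines depended on the fit. With complete smoke 3 of 68 passed the test of BEAS-2B minus A549, where 1.74% of all genes did, and with filtered smoke 1 of 68, where 0.825% did. With replicates paired 15 and 11 passed, where 20% and 15.5% of all genes did, although the numbers of BEAS-2B complete smoke and clean air were not taken to pair, and with library size alone 12 and 7, where 8.87% and 4.64% did. COL11A2 fell more in BEAS-2B with both smokes, by a log2 difference of -2.79 ± 0.41 (adjusted p = 0.00371) and -2.28 ± 0.39 (adjusted p = 0.0102), and held under all 26 alternatives. ITGB7 gave -3.33 ± 0.63 with complete smoke (adjusted p = 0.0164) and was lost only with counts that ignore strand (adjusted p = 0.177). ITGA10 gave -2.75 ± 0.57 with complete smoke (adjusted p = 0.0236) and -2.32 ± 0.56 with filtered smoke (adjusted p = 0.0638). The ITGA10 call was lost without BEAS-2B complete smoke 1 or 2 or clean air 3, or without A549 complete smoke 3 or clean air 1 or 2 (adjusted p up to 0.0721).

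ITGA5 rose in BEAS-2B and not in A549, but the difference itself missed the threshold, at 0.95 ± 0.30 with complete smoke (adjusted p = 0.12) and 1.28 ± 0.30 with filtered smoke (adjusted p = 0.0553). The second passed with DESeq2's Wald test (0.00317), with the offsets (0.00712) and with replicates paired (0.00174, where 15.5% of all genes passed for this comparison). COL7A1 and LAMA5 fell in BEAS-2B by more than in A549 in value, with differences of -1.19 and -1.28 for COL7A1 and -0.88 and -0.82 for LAMA5, but none of these passed.

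**Figure D5:**
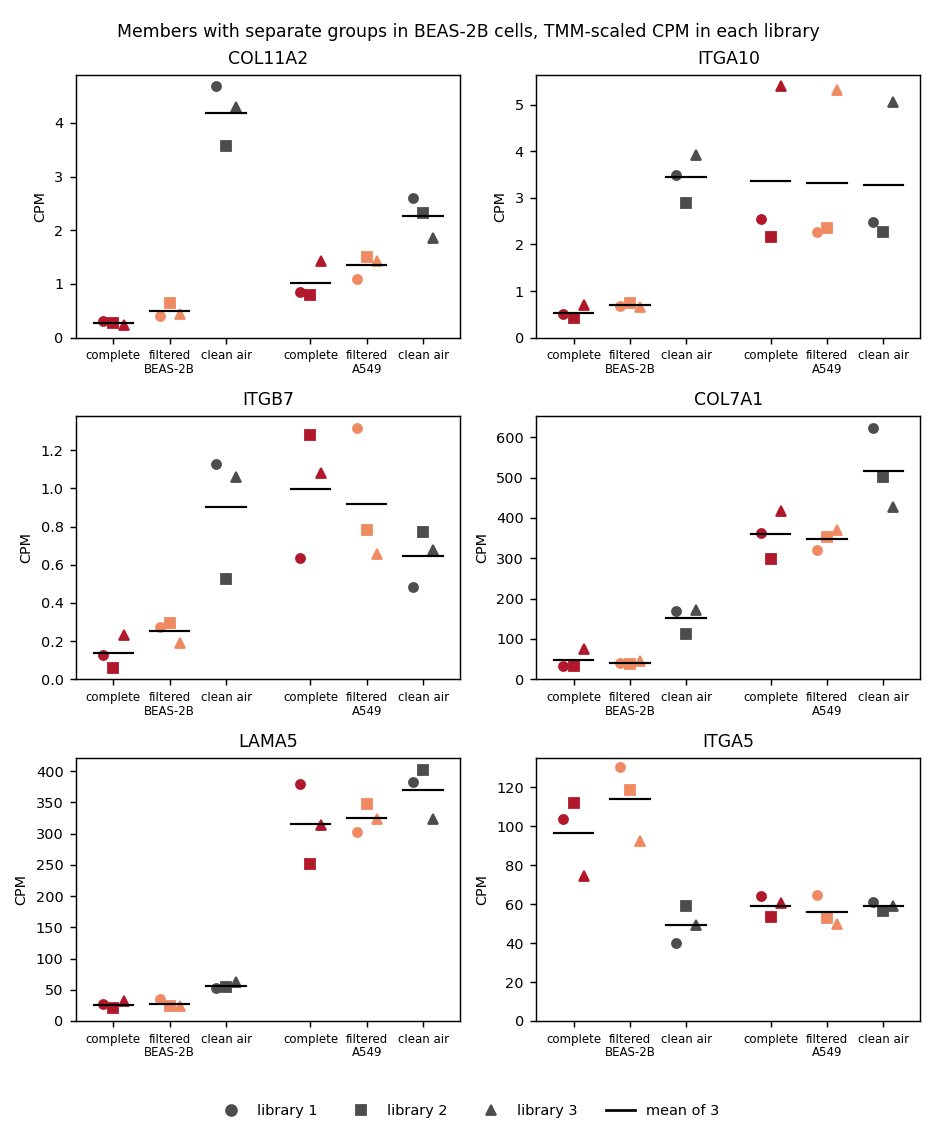
TMM-scaled CPM of COL11A2, ITGA10, ITGB7, COL7A1, LAMA5 and ITGA5 in every library, with complete smoke, filtered smoke and clean air of BEAS-2B and then of A549 from left to right and a bar at the mean of 3. In BEAS-2B the smoke libraries of all 6 genes are clear of clean air, and in A549 those of ITGA10, ITGB7, LAMA5 and ITGA5 are not. The genes were chosen with these values known, so that separation adds no support.

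The genes around this set were read from 4 lists, each beside all genes tested, of which 15.6% rose and 16.9% fell with complete smoke and 23.1% and 23.5% with filtered smoke in A549, and 21.5% and 19.5% and 23.6% and 24.9% in BEAS-2B. The values for these lists come from the fit without the offsets, and the part of gene span in them was not tested. Of the enzymes and chaperones that make collagen, 8 of 25 tested rose and 1 fell with complete smoke in A549, or 32% and 4%, and 11 rose and 2 fell with filtered smoke, or 44% and 8%. In BEAS-2B 7 of 30 rose and 4 fell with complete smoke, or 23.3% and 13.3%, and 14 rose and 5 fell with filtered smoke, or 46.7% and 16.7%. The medians of the log2 change were 0.32 and 0.26 in A549 and 0.52 and 0.73 in BEAS-2B, beside 0.02, 0.01, -0.06 and -0.07 for all genes. PLOD3, which hydroxylates and glycosylates collagen lysines, rose by 0.65 and 0.59 in A549 and by 0.85 and 1.09 in BEAS-2B. PLOD2, which prepares the cross-links of fibrils, fell by 1.14 and 1.39 in BEAS-2B and by 0.69 with filtered smoke in A549. The collagens themselves had medians of -0.16 and -0.27 in A549 and of -0.72 and -0.42 in BEAS-2B.

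Integrin adaptors gave 4 rises and 12 falls with complete smoke and 6 and 12 with filtered smoke of 31 in A549, or 12.9% and 38.7% and 19.4% and 38.7%. In BEAS-2B they gave 7 and 7 and 8 and 8, or 22.6% and 25.8% in each direction, near the shares of all genes. Of the partners in one complex, ILK, the pseudokinase that sits on beta tails, rose by 0.80 and 0.92 in A549 and by 1.2 and 1.31 in BEAS-2B, while LIMS1, which binds it, fell by 1.19 and 1.38 in A549 and by 0.99 and 1.30 in BEAS-2B. CD151, the tetraspanin that joins laminin-binding integrins, rose by 0.70 and 0.91 in A549 and by 1.66 and 1.72 in BEAS-2B. Other integrin ligands gave 3 rises and 3 falls with complete smoke and 3 and 4 with filtered smoke of 18 in A549, and 3 and 4 and 4 and 4 of 20 in BEAS-2B, shares of 15% to 22.2%. CCN2, a matrix protein that binds integrins, rose by 1.89 and 2.05 in A549 and by 2.26 and 2.25 in BEAS-2B, and NTN4, a laminin-related protein, fell by 1.37 and 1.57 in A549 and by 1.30 and 1.22 in BEAS-2B.

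Of the matrix proteases and their inhibitors, 4 rose and 3 fell with complete smoke and 4 and 6 with filtered smoke of 27 in A549, shares of 11.1% to 22.2% that were below those of all genes. In BEAS-2B 8 of 28 rose and 4 fell with complete smoke, or 28.6% and 14.3%, and 9 rose and 5 fell with filtered smoke, or 32.1% and 17.9%. TIMP1, an inhibitor of matrix metalloproteinases, rose by 0.71 and 0.89 in A549 and by 1.85 and 1.79 in BEAS-2B. Of the other inhibitors of this family, named after their values were seen, TIMP2 fell by 0.52 and 0.74 in A549 and by 1.17 and 0.94 in BEAS-2B, and TIMP3 fell by 1.12 and 1.46 in A549 and by 0.88 with complete smoke in BEAS-2B. MMP1, which cuts fibrillar collagen, rose by 1.47 and 1.37 in BEAS-2B, and PLAUR, the urokinase receptor, rose by 0.70 and 0.86 in A549 and by 1.44 and 1.47 in BEAS-2B.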

How the data were processed

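The mRNA of 18 cell line libraries was sequenced and mapped to GRCh38 with STAR 2.7.10b, per the submitters' processing notes. The RNA was extracted with TRIzol and prepared with a TruSeq mRNA kit, per the labels' protocols. The deposited files hold whole read counts per gene that STAR made, with 1 column for counts that ignore strand and 1 for each strand. The annotation release the authors counted with is not given in the sources used here. The last column held 11.7 to 17.1 times the counts of the opposite one in every library and was used throughout. Rows for unmapped, multimapping, unassigned and ambiguous reads were left out of library sizes and tests.

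From these counts, edgeR 4.0.16 in R 4.3.3 (filterByExpr by group, TMM scaling, robust quasi-likelihood fit, Benjamini-Hochberg adjustment over all genes tested, threshold 0.05) was fitted to the 9 libraries of a line, and to all 18 for differences between lines. edgeR's common biological variation (as a coefficient) came to 0.209 for A549, 0.299 for BEAS-2B and 0.258 for all libraries. Coordinates, spans and exonic lengths came from GENCODE 29, which holds 58225 of the gene IDs, and promoters from RefSeq (57 of 81 members matched). Single genes named were a fixed set of epithelial chains and subunits plus, in each comparison and direction, up to 6 called members of largest fold change with a mean of at least 1 CPM, and genes outside this rule are marked as such. The fits were tested on simulated counts. Members, gene lists and tests were chosen with earlier results of these data known.

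The alternatives were DESeq2 size factors, library size alone, no low-count filter, DESeq2's Wald test (version 1.42.0), counts that ignore strand, offsets for GC content, exonic length and span (covering 97% to 97.7% of genes within a line), a replicate block, and each library left out. Libraries sharing a number deviated together from their group means in A549, with correlations of 0.220 to 0.371 between smoke and clean air. In BEAS-2B they did so between filtered smoke and clean air, with 0.159 to 0.582. Complete smoke and clean air there gave 0.643, -0.134 and 0.652 for numbers 1, 2 and 3 and were not taken to pair. Between different numbers, smoke and clean air correlated at -0.314 to 0.116 in A549. For filtered smoke and clean air in BEAS-2B this was -0.593 to 0.434, where the ranges overlap and pairing is less sure. The paired result is given there beside calls it changes, and for BEAS-2B no paired share of all genes within the line is given. Complete and filtered smoke of the same number, 1, 2 and 3, correlated at 0.609, 0.484 and 0.798 in A549. In BEAS-2B these correlations were 0.647, 0.293 and 0.666. The main test between complete and filtered smoke has no replicate block and so leaves this out. No variation beyond these libraries enters the errors. At these depths (14438397 to 55032499 counts per library) 1 count is worth less than 0.1 CPM. Values of 1 member and 1 listed gene are not reported here, though both are in the counts.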

Additional observations from a re-analysis of the deposited data

Results flagged for a closer look

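The members flagged are those whose response to smoke passed a test of the difference between the cell lines, BEAS-2B minus A549. With complete smoke COL11A2 differed by -2.79, ITGB7 by -3.33 and ITGA10 by -2.75 on the log2 scale, and with filtered smoke COL11A2 differed by -2.28. COL11A2 was lower with complete smoke in all 3 libraries of both lines. ITGB7 and ITGA10 were lower in 3 of 3 BEAS-2B libraries, and their A549 libraries overlapped clean air. All 3 genes are at low levels in the lines, at most 5.39 CPM in any library, and in BEAS-2B with smoke they had at most 0.752 CPM.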

How the results depend on the processing

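Over the named members, 4790 gene results kept their direction and side of the threshold when a library was left out, 66 gained and 193 lost a call. Under the other settings 2839 kept theirs, 205 gained and 63 lost a call and 18 reversed, and the cause was not tested. Rises and falls of members, complete smoke then filtered smoke, were 12 and 5 and 12 and 7 in A549 and 14 and 6 and 15 and 8 in BEAS-2B with the offsets. With library size alone rises were 1 and 3 in A549 and 0 and 0 in BEAS-2B, where 36 and 30 fell. DESeq2's Wald test gave 5 rises and counts that ignore strand gave 1 rise in A549 with complete smoke. No low-count filter gave 14 falls in A549 with complete smoke and 5 rises in BEAS-2B with filtered smoke.

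The replicate block gave 9 rises and 18 falls in A549 with complete smoke and 11 rises with filtered smoke. In BEAS-2B with complete smoke it gave 8 rises and 25 falls. There libraries numbered 1, 2 and 3 correlated with clean air at 0.643, -0.134 and 0.652. As number 2 did not follow, the numbers were not taken to pair, though 1 and 3 did follow. The replicate block lost no call of a member. BEAS-2B clean air 1 and complete smoke 3 both left out, added after seeing the data, gave 9 rises and 25 falls with complete smoke.

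Differences between the lines were called for 12 members with complete smoke and 7 with filtered smoke with library size alone and again with those 2 libraries left out, for 7 and 6 with no low-count filter and with DESeq2's Wald test, for 6 and 6 with the offsets, and for 15 and 11 with the replicate block. Single libraries left out gave 2 to 5 and 1 to 3, and 55 to 59 for clean air levels. For smoke against clean air they gave 0 to 6 rises and 2 to 13 falls in A549 with complete smoke, 1 to 7 and 7 to 20 with filtered smoke, 2 to 7 and 5 to 22 in BEAS-2B with complete smoke, and 2 to 9 and 7 to 20 with filtered smoke. The fewest falls came without complete smoke 2 (A549 with complete smoke), filtered smoke 2 (both lines with filtered smoke) and clean air 2 (BEAS-2B with complete smoke), and the most without filtered smoke 3 in A549 and without clean air 1 in BEAS-2B. Between complete and filtered smoke 0 members were called under every one of these settings. Where no share of all genes is stated above for a setting, its counts of members cannot be read as a departure from all genes.

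Reversals with the offsets were COL4A2 at 0.58 and 0.62, COL4A5 at 0.51 and 0.48, COL4A6 at 0.41 with complete smoke and LAMC1 at 0.0104 with filtered smoke in A549, and COL8A1 at 0.50 and 0.52, LAMC1 at 0.62 and 0.71, ITGA1 at 0.20 and 0.58, LAMB1 at 0.57 with complete smoke and LAMA1 at 0.78 with filtered smoke in BEAS-2B. Library size alone reversed COL4A2 to -0.69 with complete smoke and ITGA3 to -0.11 and LAMB3 to -0.13 with filtered smoke in BEAS-2B. Counts that ignore strand took LAMA2 to -0.0013 in A549 with filtered smoke. Members at a few CPM or less, such as COL9A3, ITGB7 and LAMA2, rest on few reads.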
